A study of Mus musculus with 6 samples.

Results

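A set of genes of adrenergic and muscarinic signalling was followed in heart ventricle RNA from mice fed western diet (WD). Its 9 members encode 4 receptors (*Adrb1*, *Adra1a*, *Adra1b*, *Chrm2*), 2 adenylyl cyclases (*Adcy5*, *Adcy6*) and 3 phosphodiesterases (*Pde3a*, *Pde4b*, *Pde4d*). The 9 genes were chosen by name and matched to their Ensembl identifiers, out of 54232 genes with a row in the count files. All 9 were counted in every library and were among the 14133 genes that passed the filter on low counts. The animals were C57BL/6J wild type mice, 3 given Tributyrin, a triglyceride that releases butyrate, and 3 given vehicle, which the sample labels call PBS. Both groups had been on WD for 15 weeks when treatment began. Over the next 3 weeks they were needle fed in blocks of days with breaks between, and each dose of Tributyrin was 5 g per kg of mouse. The age of these animals is not given in the labels, and mice on normal chow were not analysed here. The question for these genes is whether their transcripts differed between WD + Tributyrin and WD + vehicle hearts.

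Noradrenaline from sympathetic nerves acts on the beta1 receptor, which couples to the stimulatory G protein and raises cyclic AMP through adenylyl cyclase. Acetylcholine from the vagus acts on the M2 receptor, which couples to inhibitory G proteins, lowers cyclic AMP and opens potassium channels. Phosphodiesterases break cyclic AMP down and keep its signal local, and alpha1 receptors work through another G protein and phospholipase C. Cyclic AMP activates protein kinase A (PKA), which raises the force and speed of contraction and can activate the transcription factor CREB.

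The libraries held between 20369746 and 32734485 counts on genes. *Ddx3y*, a gene of the Y chromosome, had between 1571 and 2559 counts in every library, and *Xist* had at most 6. The ventricular markers *Myl2*, *Myl3*, *Myh6*, *Tnni3*, *Tnnt2*, *Actc1*, *Actn2* and *Pln* together took 55275, 56101 and 56957 CPM (counts scaled to the same library total) in the vehicle mice and 51030, 54438 and 53324 CPM in the Tributyrin mice. These sums did not overlap between the groups, but CPM here is scaled by library totals alone. That scaling moves the median log2 fold change of all genes to -0.07, beside -0.0013 with the scaling used in edgeR. By edgeR 5 of the 8 markers were higher and 3 lower, with 4 at an unadjusted p under 0.05 (*Tnni3*, *Tnnt2* and *Pln* higher, *Actc1* lower). Whether the sums differ beyond this scaling was not tested. Atrial markers were at 182, 179 and 55.9 CPM in vehicle replicates 1, 2 and 3 and at 30.4, 64.3 and 43.7 CPM in the Tributyrin mice, so that vehicle replicates 1 and 2 stood apart. Of the 6 atrial markers 5 passed the filter (*Sln*, *Myl4*, *Myl7*, *Nppa*, *Mybphl*), all lower with Tributyrin in the mean and 4 at an unadjusted p under 0.05, with a median log2 fold change of -1.94, and *Bmp10* had at most 1 count. The groups overlapped in all 5. *Nppa* did not follow the sum. Divided by the size factor of the library, its counts were 554, 485 and 1046 with vehicle and 295, 416 and 731 with Tributyrin. Fibroblast markers took 867 to 1015 CPM with vehicle and 745 to 959.8 CPM with Tributyrin, and by edgeR 5 of 7 of them were lower. Smooth muscle and pericyte markers took 226 to 295 CPM with vehicle and 196 to 322 CPM with Tributyrin. By edgeR 5 of 6 of these were higher, 2 of them at an unadjusted p under 0.05. The part of these lists in the values of the 9 genes was not tested beyond a fit with atrial markers as a covariate. Under that fit 6 of the 9 were higher and 3 lower. At a false discovery rate of 10% it called 0 of the 9 and also 0 of all genes tested. Bulk counts cannot tell fewer cells of a type from less RNA in each cell, and this holds for every value given here. Nothing in the labels says more of how the 3 samples of a group were obtained, and p-values measure only the spread between them.

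No member of the set passed the test between the groups. In edgeR's quasi-likelihood model with adjustment by Benjamini and Hochberg over all genes tested, 0 of 9 passed a false discovery rate (FDR) of 10% or of 5%, as did 0% of all genes, and each had an adjusted p of 0.999. Unadjusted p-values under 0.05 were found for 0 of the 9 and for 4.25% of all genes. The other tools also gave 0 of the 9. Over the same 14133 genes, limma-voom called 0% at an FDR of 10% and 4.28% at an unadjusted p under 0.05. DESeq2 without a prior was run with no filter on low counts, so its shares are over other sets of genes. It called 0.0835% of 13179 genes at an FDR of 10% and 1.8% of 25578 genes at an unadjusted p under 0.05. The groups overlapped in all 9 genes, while 8.91% of all genes had groups that did not overlap (4.26% higher and 4.65% lower with Tributyrin). Fold changes are given as log2 of Tributyrin over vehicle. The median of the 9 was 0.09, and 8 were above 0, against a median of -0.0013 and 49.6% above 0 for all genes. With libraries scaled by their totals alone, 5 of the 9 were above 0, and without tributyrin replicate 1 also 5.

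CREB binds the cyclic AMP response element, TGACGTCA, and its core TGACG, so the promoters of these genes were read for both on either strand. RefSeq windows on GRCm38.p6, from 250 bases before to 50 bases after a start, were given for 6 of the 9 genes (10 windows). The whole element was in 0 of these 10 windows and in 1.79% of 32851 windows of all genes, and the core was in 2 of the 10 and in 20.8% of all windows. The stretches with a core are shown for *Adrb1* and for one of the 4 *Pde4b* windows, with the core in capitals (CGTCA is TGACG read on the other strand). The last 100 bases before the start are shown for *Chrm2* and *Pde4d* because their counts put the 6 mice in the same order, as described further on, and they hold no core.
Adrb1, chr19:56721999-56722059, plus strand: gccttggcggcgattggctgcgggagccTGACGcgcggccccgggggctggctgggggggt
Pde4b, chr4:102421493-102421553, plus strand: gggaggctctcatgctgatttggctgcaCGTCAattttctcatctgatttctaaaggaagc
Chrm2, chr6:36387984-36388083, plus strand: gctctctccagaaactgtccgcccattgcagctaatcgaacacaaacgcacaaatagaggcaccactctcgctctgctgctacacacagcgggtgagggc
Pde4d, chr13:108654077-108654176, plus strand: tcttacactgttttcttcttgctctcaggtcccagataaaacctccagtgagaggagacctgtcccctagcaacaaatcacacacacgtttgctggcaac
The core begins 90 bases before the start in *Adrb1* and 34 bases before it in *Pde4b*. The counts are sums over whole genes and do not tell which start was used.

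**Figure D1:**
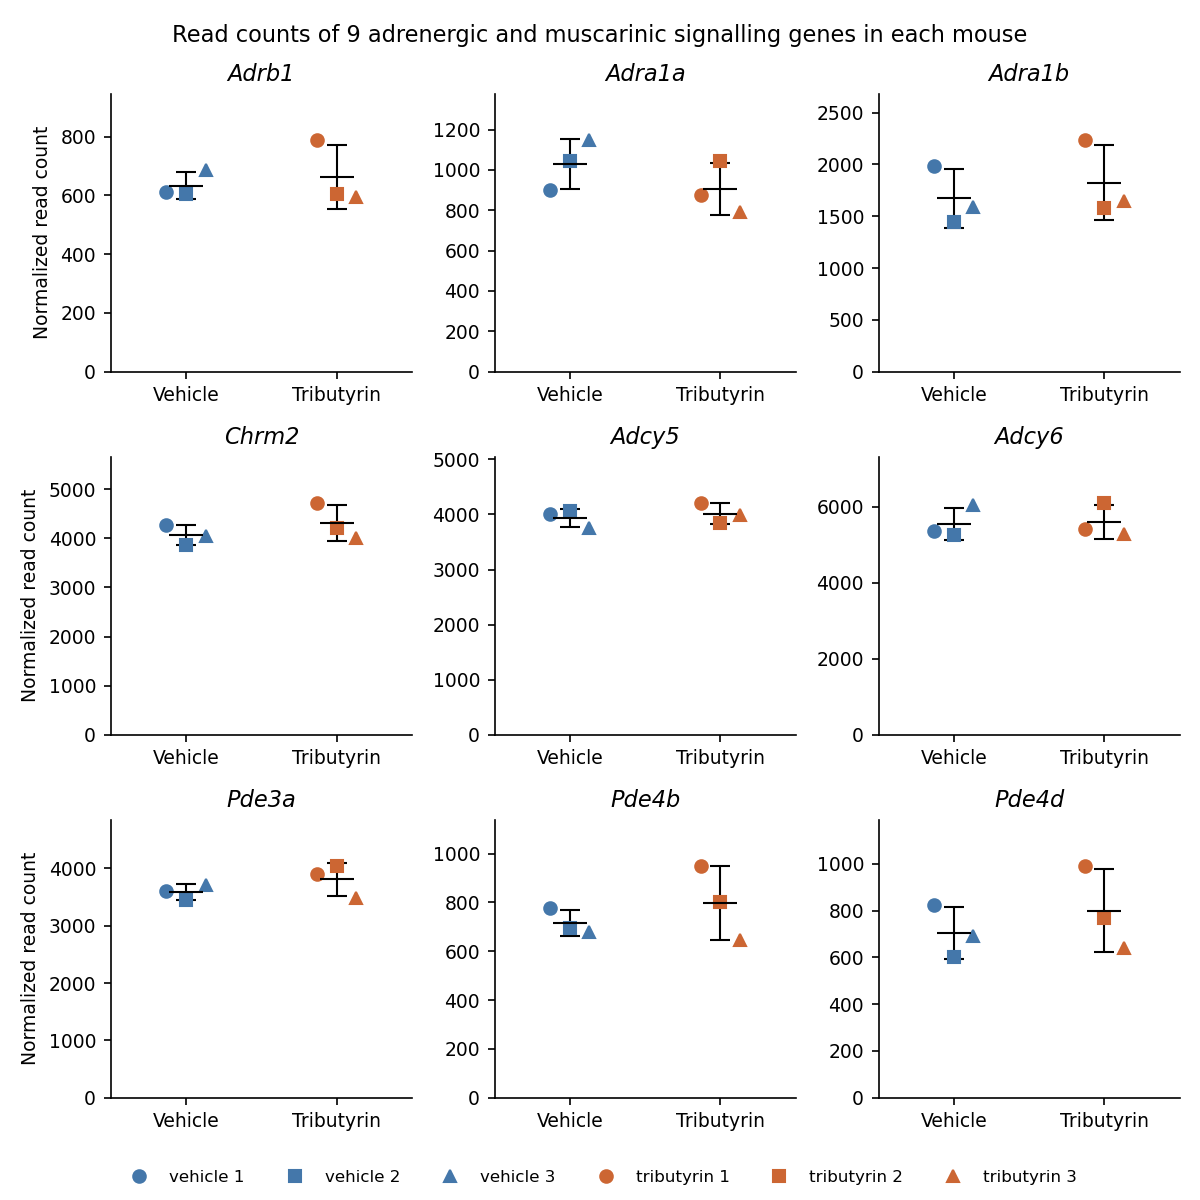
Read counts divided by the size factor of each library (y axis) in the 3 vehicle mice (blue) and the 3 Tributyrin mice (orange). Marker shapes are the replicate numbers, and bars are the mean and SD of 3 mice. The groups overlap in all 9 panels, and tributyrin replicate 1 is the highest mouse in 6 of them.

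*Adrb1* encodes the beta1 receptor, through which noradrenaline raises the rate and force of the heart. It is ENSMUSG00000035283, at chr19:56722199-56733113 on the plus strand of GRCm38. Its normalized read counts, which are counts divided by the size factor of the library, were 612, 603 and 686 in the vehicle mice and 789, 605 and 595 in the Tributyrin mice. A single mouse, tributyrin replicate 1, lay above all others, and the other Tributyrin mice lay within or just under the vehicle range. The means were 634 ± 45.3 with vehicle and 663 ± 109 with Tributyrin (SD, n = 3). The log2 fold change was 0.07 (standard error 0.12), with a 95% interval from -0.19 to 0.33. Without tributyrin replicate 1 it was -0.07.

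*Adra1a* and *Adra1b* encode the alpha1 receptor subtypes of heart muscle, which act through phospholipase C. *Adra1a* (ENSMUSG00000045875, chr14:66635251-66771168, plus strand) had normalized read counts of 900.1, 1042 and 1149 with vehicle and 875, 1044 and 794 with Tributyrin. This was the only gene of the 9 with a lower mean in the Tributyrin mice, and its lowest mouse was tributyrin replicate 3. Its log2 fold change was -0.18 (standard error 0.12), with a 95% interval from -0.45 to 0.08. It was -0.10 without vehicle replicate 3 or tributyrin replicate 3 and -0.30 without tributyrin replicate 2. The unadjusted p was 0.15 in edgeR's model across genes, the lowest of the 9. *Adra1b* (ENSMUSG00000050541, chr11:43774606-43901210, minus strand) had 1987, 1444 and 1586 with vehicle and 2237, 1579.8 and 1646 with Tributyrin. Replicate 1 was the highest mouse of either group. The log2 fold change was 0.12 (standard error 0.15; 95% interval -0.20 to 0.45), and it was -0.05 without tributyrin replicate 1.

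*Chrm2* encodes the M2 muscarinic receptor, the main target of the vagus in the heart. It is ENSMUSG00000045613, at chr6:36388084-36528414 on the plus strand. Its normalized read counts were 4280.3, 3870.1 and 4054 in the vehicle mice and 4725, 4211 and 4006 in the Tributyrin mice. Only tributyrin replicate 1 lay above the vehicle range. The means were 4068 ± 205 and 4314 ± 370.5 (SD, n = 3), and the log2 fold change was 0.09 (standard error 0.08; 95% interval -0.09 to 0.27). It was 0.02 without tributyrin replicate 1 and 0.015 with libraries scaled by their totals alone. The noncoding gene *9330158H04Rik*, with between 269 and 471 counts, shares 142 exon bases with *Chrm2* on the opposite strand. Since the strand setting of the counting is not given in the sources used here, reads in those bases cannot be assigned with certainty.

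*Adcy5* and *Adcy6* encode the main adenylyl cyclases of cardiomyocytes, which both receptors act on through their G proteins. Their fold changes were the smallest of the 9. *Adcy5* (ENSMUSG00000022840, chr16:35154877-35305738, plus strand) had 4016, 4054 and 3749 normalized read counts with vehicle and 4211, 3841 and 3995 with Tributyrin. Its log2 fold change was 0.03 (standard error 0.07; 95% interval -0.13 to 0.18), and the upper bound of the interval is a 1.14-fold change. *Adcy6* (ENSMUSG00000022994, chr15:98589973-98610076, minus strand) had 5362, 5264 and 6040.4 with vehicle and 5417, 6105 and 5285 with Tributyrin. One mouse of each group, vehicle replicate 3 and tributyrin replicate 2, was high. The log2 fold change of *Adcy6* was 0.01 (standard error 0.08; 95% interval -0.17 to 0.20), and the lower bound is a 0.887-fold change.

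*Pde3a* encodes a cyclic AMP phosphodiesterase that cyclic GMP inhibits. It is ENSMUSG00000041741, at chr6:141249269-141507448 on the plus strand. Its normalized read counts were 3601, 3445 and 3716 with vehicle and 3899, 4043 and 3480.4 with Tributyrin. Tributyrin replicates 1 and 2 lay above the vehicle range and tributyrin replicate 3 within it. The log2 fold change was 0.09 (standard error 0.08), with a 95% interval from -0.08 to 0.26. It was 0.04 without tributyrin replicate 2 and 0.017 with libraries scaled by their totals alone. *Gm28523* shares 741 exon bases with it on the opposite strand and had between 13 and 28 counts.

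*Pde4b* and *Pde4d* encode cyclic AMP specific phosphodiesterases, and the PDE4D protein is known to associate with beta adrenoceptors and the ryanodine receptor. *Pde4b* (ENSMUSG00000028525, chr4:102087543-102607259, plus strand) had 777, 694 and 679.6 normalized read counts with vehicle and 950.1, 801 and 646 with Tributyrin. The Tributyrin mice held both the highest and the lowest value. Its log2 fold change was 0.16 (standard error 0.13; 95% interval -0.13 to 0.45). *Pde4d* (ENSMUSG00000021699, chr13:108449948-109953461, plus strand) had 822, 600.2 and 692 with vehicle and 991, 767 and 640.1 with Tributyrin. Its log2 fold change of 0.19 (standard error 0.16; 95% interval -0.16 to 0.54) was the largest of the 9 in size, and 23.5% of all genes tested had one at least as large in either direction. Without tributyrin replicate 1 the log2 fold change was 0.02 for *Pde4b* and 0.0079 for *Pde4d*. Without tributyrin replicate 3 it was 0.29 for *Pde4b* and 0.33 for *Pde4d*. The ribosomal pseudogene *Rps3a3*, with between 861 and 2219 counts, lies within *Pde4d* on the same strand but shares no exon base with it.

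**Figure D2:**
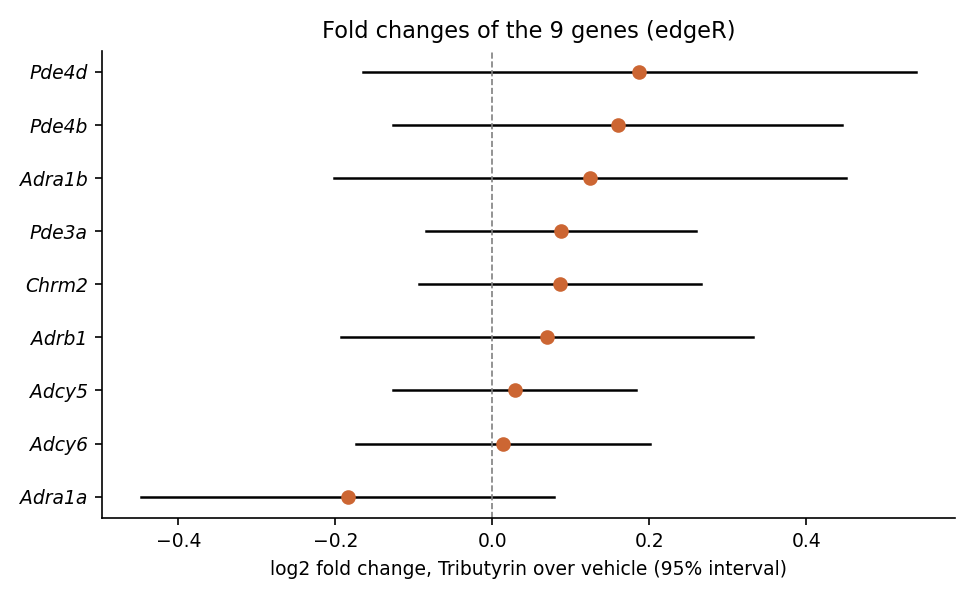
The log2 fold change of each gene, Tributyrin over vehicle (x axis), from edgeR with its 95% interval as a line. The points run from -0.18 for *Adra1a* to 0.19 for *Pde4d*, and every interval holds 0.

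The counting error behind these values was small. The lowest count of any of the 9 genes was 519, for *Adrb1*, where counting alone gives a relative SD of 4.39%, and the lowest count of *Adcy6* was 4607, which gives 1.47%. The spread between the Tributyrin mice was larger, with an SD of 22.2% of the mean for *Pde4d*, 19.9% for *Adra1b* and 19.0% for *Pde4b*. It was smallest for *Adcy5*, at 4.62%, while among the vehicle mice *Pde3a* had the smallest, at 3.79%. Two-sided exact permutation tests of the means gave p between 0.3 and 0.9 for the 9 genes, where 3 mice against 3 give no p under 0.1.

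To compare the genes with each other, normalized read counts were divided by the length of all exons of a gene in kilobases. *Adcy6* stood highest, at 823 ± 57.1 per kilobase (SD, n = 6), then *Chrm2* at 692 ± 49.5. *Adcy5* followed at 554 ± 22.7 and *Adra1b* at 516 ± 89.0. *Pde3a* was at 290.3 ± 18.6 per kilobase and *Adrb1* at 192 ± 22.6. *Adra1a*, *Pde4b* and *Pde4d* were lowest, at 111 ± 15.2, 71.8 ± 10.5 and 62.6 ± 11.9. Each gene lay above the next in all 6 mice, except that *Adcy5* lay above *Adra1b* in 4 of 6. The ranges over mice overlapped between *Adcy6* and *Chrm2*, between *Adcy5* and *Adra1b*, and between *Pde4b* and *Pde4d*. The merged exons of *Adra1a*, *Pde4b* and *Pde4d* are long (8728, 10560 and 12006 bases) beside their longest coding transcript (4282, 4304 and 4207 bases). With the longest coding transcript as the length, *Adra1a* stood at 226 per kilobase beside 219.7 for *Adrb1*, and *Pde4d* at 179 beside 176 for *Pde4b*. In both of these pairs the first gene then lay above the second in 4 of 6 mice, so their order rests on the length used.

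**Figure D3:**
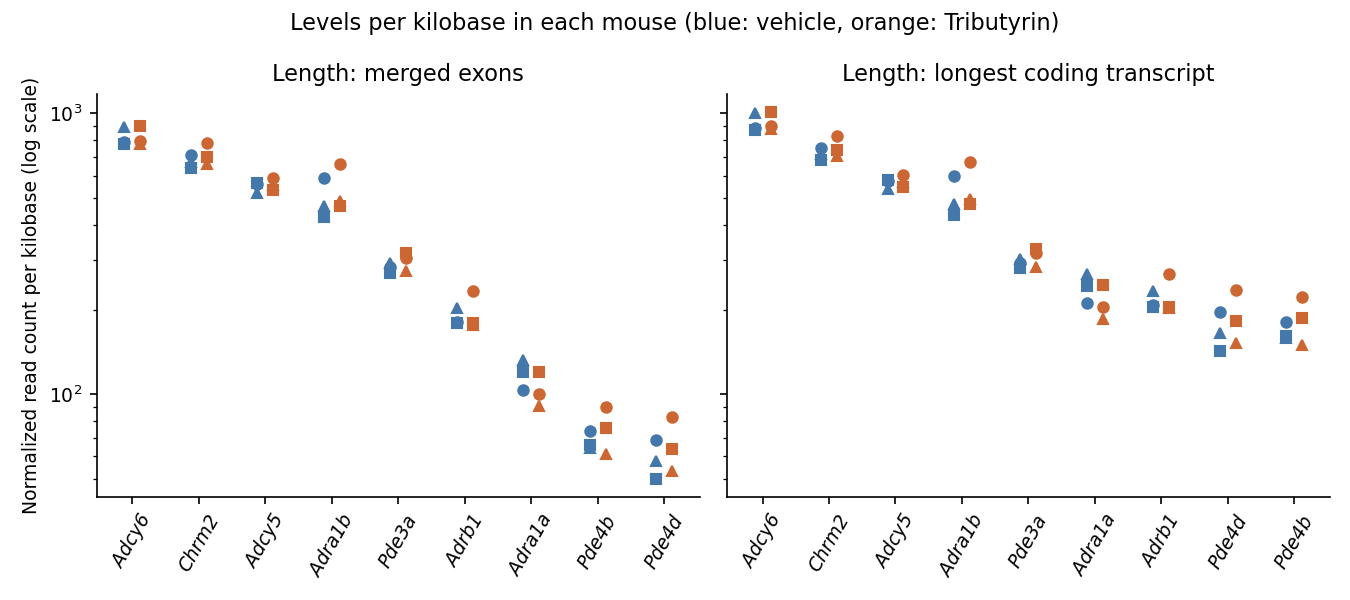
Normalized read count per kilobase on a log scale (y axis) for the 9 genes in each mouse, with the length of the merged exons on the left and of the longest coding transcript on the right. *Adcy6* and *Chrm2* lead in both panels, and the lower genes change places between them.

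The balance within pairs of related genes was computed in each mouse from the levels per kilobase, and does not depend on the scaling of libraries. *Adra1b* made up 85.1%, 78.1% and 78.1% of the alpha1 pair in the vehicle mice and 86.8%, 79.6% and 84.3% in the Tributyrin mice. The groups overlapped, with means of 80.4% ± 4.0 and 83.6% ± 3.7 (SD, n = 3; two-sided exact permutation test, p = 0.3). *Adcy6* made up 59.8% ± 2.8 of the cyclase pair in vehicle mice, and its share in Tributyrin mice was 59.6% ± 2.7 (exact permutation p = 0.7). *Pde4d* made up 46.2% ± 2.6 and 46.7% ± 1.1 of the pair with *Pde4b* (exact permutation p = 0.9). *Chrm2* made up 78.2% ± 1.4 and 78.5% ± 1.3 of the sum with *Adrb1*, the opposing receptor (exact permutation p = 0.8). The adjusted p over these 4 exact permutation tests was 0.9 for each. With the longest coding transcript as the length, *Adra1b* made up 67.3% ± 5.7 of the alpha1 pair with vehicle and 71.8% ± 5.4 with Tributyrin, so the size of its share rests on the length used. The difference went from 3.13 to 4.49 percentage points (exact permutation p = 0.3 for both). The other differences then moved by under 0.1 percentage points.

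Several members were high or low in the same mice. Tributyrin replicate 1 was the highest mouse in 6 of them, tributyrin replicate 2 in 2 and vehicle replicate 3 in 1. Vehicle replicate 2 was the lowest in 5, and the same was not counted over all genes. Log2 CPM was compared over the 6 mice for all 36 pairs, and the pairs named here were chosen after their values were seen. *Chrm2* and *Pde4d* put the mice in the same order (Pearson's r = 0.99, Spearman's rho = 1). The exact permutation p was 0.00278 for each, the smallest that 6 mice allow, and 0.1 after Benjamini-Hochberg adjustment over the 36 pairs. Without the 2 mice farthest from the median of *Chrm2*, r was 0.99, and with each group centred on its own mean it was also 0.99. *Pde4b* followed *Chrm2* with r = 0.93 and rho = 0.77 (exact permutation p = 0.025 and 0.103, adjusted 0.18 and 0.4625). Without the 2 mice farthest from the median of *Chrm2*, this r was 0.96. *Adra1b* followed *Chrm2* with r = 0.91 and rho = 0.77 (exact permutation p = 0.0167 and 0.103, adjusted 0.18 and 0.4625). Here r was 0.60 without the 2 mice farthest from the median of *Adra1b*. *Adcy5* and *Adcy6* ran against each other, with r = -0.77 and rho = -0.54 (exact permutation p = 0.125 and 0.297, adjusted 0.4 and 0.51). Their r was -0.95 without the 2 mice farthest from the median of *Adcy5*. No pair passed an adjusted p of 0.05. A single pair could not, since the smallest p of 6 mice adjusts to 0.1 over 36 pairs.

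**Figure D4:**
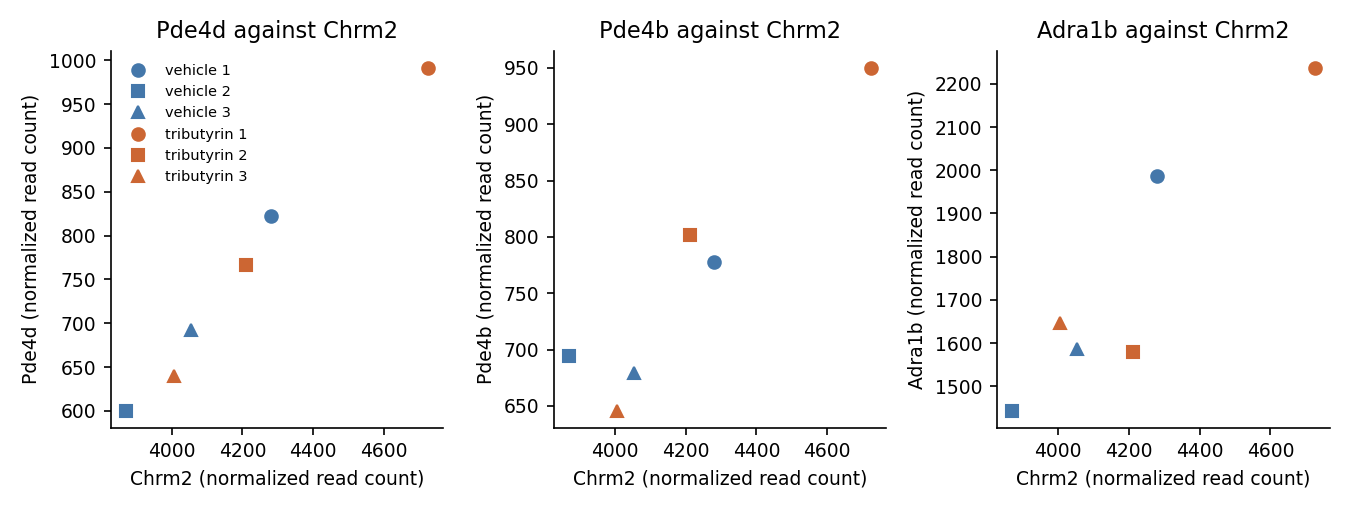
Normalized read counts of *Pde4d*, *Pde4b* and *Adra1b* (y axes) against *Chrm2* (x axes), with 1 point for each of the 6 mice (blue vehicle, orange Tributyrin). *Pde4d* climbs with *Chrm2* through all 6 mice, and tributyrin replicate 1 is at the upper right in each panel; the axes do not start at 0.

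Around these genes, 138 further genes of the pathway were read from lists chosen with earlier results of these data known, and 126 passed the filter. Of these, 0 passed an FDR of 10%. At an unadjusted p under 0.05 in edgeR there were 15 (11.9%), 8 higher and 7 lower with Tributyrin, beside 1.97% of all genes higher and 2.28% lower. The count was 5 without vehicle replicate 3 and 7 without vehicle replicate 2, where 2.68% and 2.82% of all genes were under 0.05. It was 8 without tributyrin replicate 1 and 8 with the atrial transcripts as a covariate, beside 3.74% and 3.08% of all genes. With libraries scaled by their totals alone it was 15, of which 2 were higher and 13 lower, so the split by direction rests on the scaling. The median log2 fold change of the 126 genes was -0.0036, beside -0.0013 for all genes. No test of the lists as sets was made.

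Among other receptors, 4 adrenoceptor genes and 1 muscarinic receptor gene passed the filter. An unadjusted p under 0.05 was reached by 0 of them, beside 4.25% of all genes. *Adra1d*, the leading gene of the first list, was counted 84 to 131 times in a library, and its log2 fold change was -0.06 (standard error 0.17). *Chrm3* was counted 13 to 30 times, at a log2 fold change of -0.08 (0.53). *Chrm1* and *Chrm5* had no count in the 6 libraries, which allows at most 0.0187 CPM over them (3 counts, counting error only). *Adcy9* led the other cyclases in level and had a log2 fold change of -0.0098 (standard error 0.11). *Adcy7*, a cyclase prominent in blood and immune cells, had 319, 386 and 333 normalized read counts with vehicle and 235, 258 and 256 with Tributyrin. These groups did not overlap, and the log2 fold change was -0.48 (standard error 0.11; unadjusted p = 0.00154 and adjusted p = 0.999 by edgeR). *Pde4a*, which stood highest per kilobase among the other phosphodiesterases, was at -0.04 (standard error 0.08), and *Pde8a* at -0.22 (0.09).

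The G proteins of these receptors, those of the alpha1 receptors among them, had a median log2 fold change of 0.0092 over 15 genes. *Gnas*, the stimulatory subunit, had 1309, 1147 and 1307 normalized read counts with vehicle and 991, 1135 and 1105 with Tributyrin, a log2 fold change of -0.22 (standard error 0.09). The groups lay apart by a narrow margin. *Gnai2*, the most abundant per kilobase of this list, was at -0.03 (0.06). *Gnao1* was at -0.57 (0.10; unadjusted p = 0.00025 and adjusted p = 0.999 by edgeR), and its groups did not overlap. It is in the study's supplementary list of transcripts. That list comes from these same mice, as does every value given here, so none is independent evidence. Of the receptor kinases and regulators, the log2 fold change was 0.0010 for *Grk2*, which desensitizes beta receptors, 0.31 (standard error 0.14) for *Rgs2* and 0.22 (0.10) for *Rgs4*. *Rgs5*, a gene of pericytes, led this list in level and was at 0.14 (0.07).

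Downstream, *Popdc2* led the list of PKA, anchors and EPAC by level, at 0.07 (standard error 0.09), and *Bves*, a cyclic AMP binding protein of the same family, was at -0.19 (0.08). A list of 12 genes held PKA substrates of contraction and the calcium pump gene *Atp2a2*, which PKA regulates through *Pln*. Of these, 3 reached an unadjusted p under 0.05, each higher with Tributyrin, beside 1.97% of all genes. The first and second of these, *Pln* and *Tnni3*, are also in the list of ventricular markers, where *Tnnt2* was higher too and *Actc1* lower. *Pln* (phospholamban, the PKA-regulated brake on the calcium pump) had 36328, 34767 and 33891 normalized read counts with vehicle and 43345, 37123 and 43375 with Tributyrin. Its log2 fold change was 0.24 (standard error 0.08), and the groups did not overlap. It was 0.21 (0.08) for *Tnni3* and 0.28 (0.12) for *Rrad*, and 0.05 (0.08) for *Atp2a2*, the calcium pump itself. *Gm47644* and *Cep85l* overlap exons of *Pln* on the opposite strand, with at most 160 and 678 counts. *Kcnj3* encodes a subunit of the potassium channel that M2 receptors open. It had 2174, 1988 and 1892 normalized read counts with vehicle and 2540, 2154 and 2338 with Tributyrin. These overlapped, with a log2 fold change of 0.22 (0.08), while the partner subunit gene *Kcnj5* was at 0.06 (0.14). On the alpha1 side, *Prkca* was at -0.22 (0.07) and *Dgkz*, the leading gene of that list, at -0.06 (0.07).

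**Figure D5:**
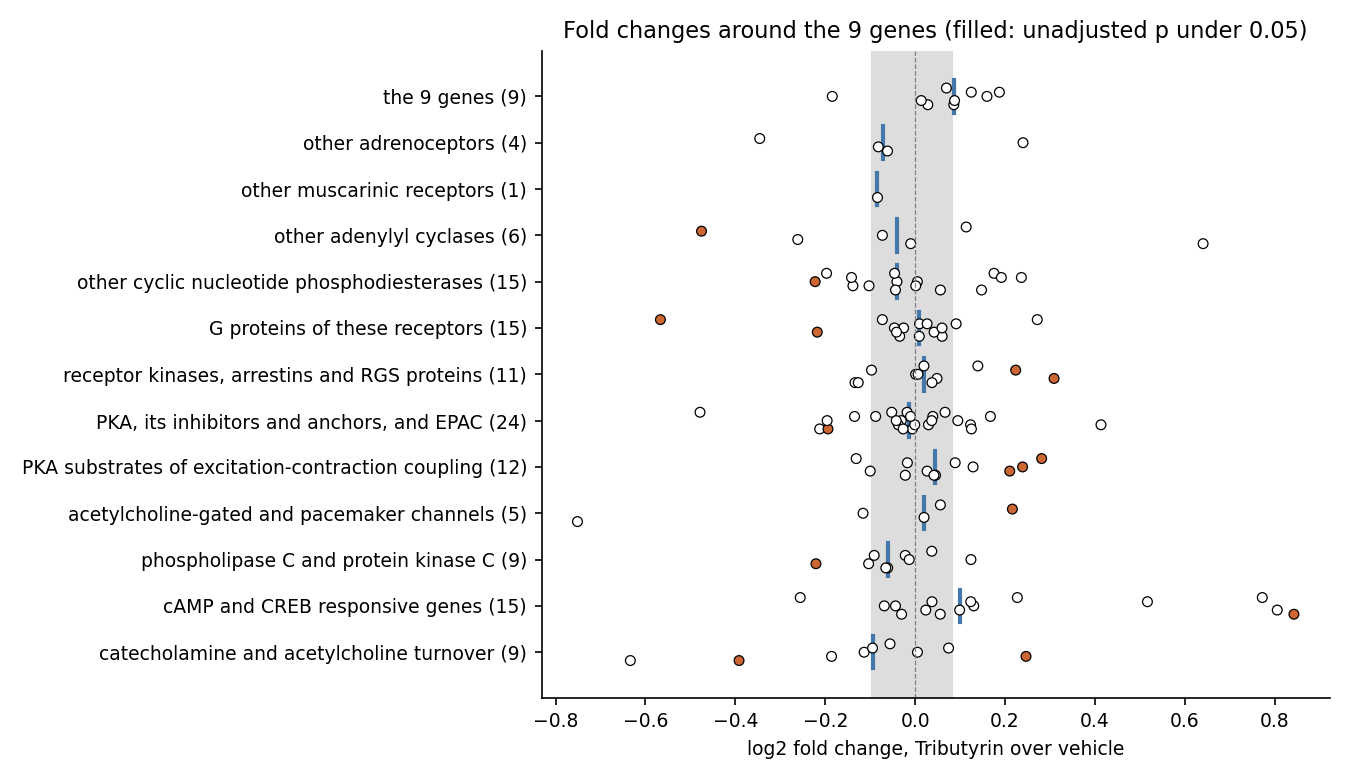
The log2 fold change, Tributyrin over vehicle (x axis), of the 9 genes and of each tested gene of 12 lists around them, with the number of genes in brackets. Blue bars are list medians, the grey band holds the middle of all genes tested (25th to 75th percentile, -0.10 to 0.08), and filled points have an unadjusted p under 0.05. Most of the 9 genes lie to the right of 0 and none is filled.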

How the data were processed

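RNA from heart ventricle of 6 mice was measured by stranded mRNA sequencing (3 WD + Tributyrin, 3 WD + vehicle), with groups and replicate numbers taken from the sample titles. Per the submitters' processing notes, the authors used cutadapt 1.13, STAR, HTSeq 0.6.1p1, DESeq2 1.14.1 and the build mm10. The authors trimmed adapters, dropped low-quality and ribosomal reads, and deposited whole-number read counts per Ensembl gene with no normalization. Which annotation release and which strand option the counting used was not stated in what was read here. Of 54232 identifiers, 54165 matched GENCODE M21 (GRCm38, the assembly of mm10), the source of symbols, positions and lengths, and 0 lines named no gene. Library totals ran from 20369746 to 32734485 counts, and deeper libraries have less counting error. No pair of libraries agreed within sampling noise (chi-square per degree of freedom 7.4 to 31.8).

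The groups were compared with edgeR 4.0.16 in R 4.3.3 (TMM scaling, filterByExpr with a minimum count of 10 and total of 15, quasi-likelihood test, no covariate, Benjamini-Hochberg adjustment), at an FDR of 10% as in the study's results and 5% as in its methods. Normalized read counts are counts divided by DESeq2 1.42.0 size factors. Permutation tests (scipy 1.17.1) were exact and two-sided. Alternatives were other scalings, no low-count filter, DESeq2 with and without a prior, limma-voom (limma 3.58.1), bias-adjusted deviances, a replicate block and leaving out each mouse, and, added after the data were seen, the atrial marker mean as a covariate and the recount of pathway genes under each setting. The fits were tested on simulated data. The changes put into those data were larger than any fold change of the 9 genes, so that test does not bear on changes of their size.

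The 9 genes and the lists were chosen with earlier results of these data known. Genes named beside the 9 are list genes at an unadjusted p under 0.05, the gene of highest level per kilobase in each list, and the 3 genes of most similar pattern to *Adrb1*, *Chrm2* and *Adra1a*; others were named after their values were seen, and a few genes that the rule names are not reported here.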

Additional observations from a re-analysis of the deposited data

How the results depend on the processing

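In every alternative run, 0 of the 9 genes passed an FDR of 10%. The number of all genes past it was 167 with no filter on low counts, 11 by DESeq2 without a prior, 9 with one, and from 0 to 3 with each mouse left out. No cause was tested for DESeq2 or for the fits with fewer mice. At an unadjusted p under 0.05 there was 1 of the 9 without tributyrin replicate 2 (*Adra1a*, -0.30), where 9.56% of all genes were under 0.05, and 2 without tributyrin replicate 3 (*Pde4b* and *Pde4d*), where 4.57% were. The log2 fold changes of *Adra1a*, *Chrm2*, *Pde3a*, *Pde4b* and *Pde4d* kept their direction throughout, but not their size: single mice left out gave -0.30 to -0.096 for *Adra1a*, 0.02 to 0.14 for *Chrm2*, 0.04 to 0.15 for *Pde3a*, 0.02 to 0.29 for *Pde4b* and 0.0079 to 0.33 for *Pde4d*. With library size alone, *Adrb1* was at -0.0026, *Adcy5* at -0.044 and *Adcy6* at -0.058, a scaling that moves the median of all genes to -0.07. With the atrial covariate, *Adrb1* was at -0.014 and *Adcy6* at -0.029. When single mice were dropped, the range was -0.070 to 0.14 for *Adrb1*, -0.046 to 0.27 for *Adra1b*, -0.0048 to 0.058 for *Adcy5* and -0.055 to 0.079 for *Adcy6*. The differences in shares, in percentage points, then ran from 1.5 to 5.45 for *Adra1b*, -1.83 to 1.35 for *Adcy6*, -1.01 to 1.48 for *Pde4d* and -0.39 to 1.08 for *Chrm2*. The 15 pathway genes at an unadjusted p under 0.05 became 8 with the atrial covariate and from 5 to 18 with each mouse left out. Over all genes, the share under 0.05 was 4.25% in edgeR with all 6 mice and 3.08% with that covariate. With each mouse left out it ran from 2.68% to 9.56%. The longest coding transcript changed 4 places in the order of levels.

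Mice of the same replicate number had deviations that correlated at 0.21, 0.037 and 0.015, so the numbers were not taken as pairs. The highest correlation of vehicle replicate 2 was with tributyrin replicate 3 (0.15). With the replicate block 2 genes passed 10%, 0 of them among the 9. Depth did not limit the 9 genes, while *Chrm1*, *Chrm5*, *Adcy10*, *Chat*, *Slc5a7* and *Slc18a3* had no count.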

Other observations

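Of the 15 genes listed as responsive to cyclic AMP and CREB, which include CREB and its partners, tributyrin replicate 1 was the highest mouse in 7, vehicle replicate 3 in 3, tributyrin replicate 3 in 3 and tributyrin replicate 2 in 2. Tributyrin replicate 1 was also the highest mouse in 6 of the 9 genes. How often it was the highest mouse over all genes was not counted. *Nr4a1*, an early response gene, had 769, 422 and 539 normalized read counts in the vehicle mice and 2083, 454 and 395 in the Tributyrin mice. *Sik1*, a kinase gene induced by cyclic AMP, had 1079, 901 and 963 with vehicle and 1894, 844 and 693 with Tributyrin. *Nr4a3* had 110.2, 114 and 145 with vehicle and 339, 82.2 and 221 with Tributyrin. In each of these 3 genes, named after their values were seen, the groups overlapped and tributyrin replicate 1 was the highest mouse. Others of the list differed, with *Fos* and *Ppargc1a* highest in tributyrin replicate 3 and *Per1* in vehicle replicate 3. *Nr4a2* had 31.2, 27.1 and 34.8 with vehicle and 79.5, 35.6 and 50.5 with Tributyrin, which did not overlap, and the log2 fold change was 0.84 (standard error 0.31). *Dusp1*, the gene of highest level in this list, had 1539, 1189 and 1427 with vehicle and 1519.5, 1399 and 1625 with Tributyrin, with tributyrin replicate 3 the highest, and a log2 fold change of 0.13 (0.10). Whether these values bear on the 9 genes was not tested.

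Of the genes that make and clear the transmitters, the enzyme and transporter genes of acetylcholine synthesis (*Chat*, *Slc5a7* and *Slc18a3*) had no count. *Th*, which starts catecholamine synthesis, had 1 count in all. Not all were so low, as *Ddc* was counted 36 to 102 times in a library and *Dbh* 106 to 222 times. The monoamine oxidase gene *Maoa* was at a log2 fold change of -0.39 (standard error 0.17) and *Maob* at 0.25 (0.10), and neither passed an FDR of 10%.

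Over the 6 mice, the genes with the pattern most like *Adrb1* by Pearson's r of log2 CPM were *Rnf19a*, *Sybu* and *Ippk* (0.999 to 0.978, with 56 of 10261 genes at 0.9 or more). For *Chrm2* they were *Fbxo10*, *Ndufs1* and *2900076A07Rik* (0.997 to 0.993, 129 genes), and for *Adra1a* they were *Col4a5* and *Itpr3* (0.994 and 0.991, 167 genes). With 6 points and this many genes, high values of r are frequent, and these are given as a description.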
